A study of Mus musculus with 8 samples.

Results

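The combined action of the peptides S7 and E7 on bone marrow mesenchymal stem cells (BMSCs) was examined on day 7 of osteogenic differentiation, gene by gene, as the departure of the combined arm from the sum of the single effects. The departure of a gene is log2(PCL-SE/PCL-O) minus log2(PCL-S/PCL-O) minus log2(PCL-E/PCL-O), computed from normalised CPM (read counts scaled to a common library size) with 2 added. It is 0 where the effects add on the log2 scale, negative where the combined arm stood below the sum and positive where it stood above. The genes covered are the 7835 of 22050 genes with a rat Ensembl identifier that reached 20 CPM of the library total in any of the 4 day 7 libraries. The table holds 26873 features in all.

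The 4 arms are extracts of polycaprolactone (PCL) scaffolds, made in complete DMEM with serum and applied to the cells. The labels and the series design were read together: PCL-S as the S7 group, PCL-E as the E7 group and PCL-SE as the group with both. The remaining arm, PCL-O, was read by elimination as the blank, scaffold extract without either peptide. The cells are labelled as a cell line, and every arm was wild type and in osteogenic differentiation, so the blank differentiates too. Each arm has 1 library per day. Peptide sequences, their doses and the number of cultures per library are not stated in the labels.

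The gene groups described here have well known roles. The aryl hydrocarbon receptor (AhR) and NRF2 are transcription factors that switch on drug-metabolising and antioxidant enzymes, and peroxisome proliferator-activated receptors (PPARs) are lipid-sensing nuclear receptors that raise genes of fatty acid use. Stromal cells of the bone marrow also secrete elastic fibres, collagens, basement membrane proteins and insulin-like growth factor (IGF) binding proteins, which form and tune the matrix in which bone is laid down. In a layout of 2 factors, a pair of agents that raise the same gene can add up, saturate or oppose each other, and the departure puts a value on this for each gene.

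Day 7 libraries held 32950326 to 41754124 counts, and the counting error of a departure had a median of 0.07 log2 units over the 7835 genes and reached at most 0.14 among the genes named as departing. With 1 library per arm there are no residual degrees of freedom, no p-value is given, and every departure describes these 4 libraries. Counting error does not cover variation between cultures. PCL-O enters both single effects with the same sign and the departure with the opposite sign, so a deviation of the single PCL-O library and a shortfall from the sum cannot be told apart from these values alone. The labels give Mus musculus as the organism, whereas the identifiers are those of rat genes, and symbols follow the identifiers. Stromal identity was checked with 10 markers, all of which reached 1 CPM in at least 1 arm, with summed levels of 37380 CPM in PCL-O, 7988 in PCL-S, 22456 in PCL-E and 7679 in PCL-SE. Col1a1 and Col1a2 made up most of these sums, and the other 8 markers summed to 1661 CPM in PCL-O, 1360 in PCL-S, 1367 in PCL-E and 1380 in PCL-SE. The adipocyte markers Adipoq, Plin1, Lep, Cidec and Retn were each under 0.1 CPM in every arm. So were the macrophage markers Ptprc, Adgre1 and C1qa and the endothelial markers Cdh5 and Kdr. The other 3 of 8 adipocyte markers, Cebpa, Pparg and Fabp4, reached 1 CPM in at least 1 arm and were highest in PCL-S. Of 8 osteoblast markers 5 reached 1 CPM, and their sum, mostly Spp1, was 1407 CPM in PCL-O, 1488 in PCL-S, 1039 in PCL-E and 2450 in PCL-SE. The others did not share 1 direction. Alpl (13.8, 0.607, 8.43 and 1.15 CPM in the same order), Dmp1 (9.47, 0.158, 1.69 and 0.392) and Phex (5.31, 0.238, 2.35 and 0.346) were lowest with S7. Runx2 (20.6, 26.3, 23.6 and 30.4) was highest with S7. In bulk RNA, fewer cells of a type and less RNA per cell cannot be told apart.

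For most genes the combined arm lay close to the sum. The departure was within 0.5 log2 units for 6809 genes (86.9%), with quartiles at -0.20 and 0.21 and a standard deviation across genes of 0.40. A departure of at least 1 log2 unit, a factor of 2, was found for 192 genes (2.45%), of which 90 lay above the sum (1.15%) and 102 below it (1.3%). Beyond 2 log2 units were 9 genes above and 20 below. Among the 192, 35 carry placeholder names, encode ribosomal proteins or have near-identical copies elsewhere in the genome, and are given as uncertain (12 above, 23 below). The split between higher and lower depends on the scale: with the effects added as CPM rather than as logarithms, 559 genes lay at least 1 unit above the sum and 40 below it, and with the deposited FPKM values 40 lay above and 101 below.

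**Figure D1:**
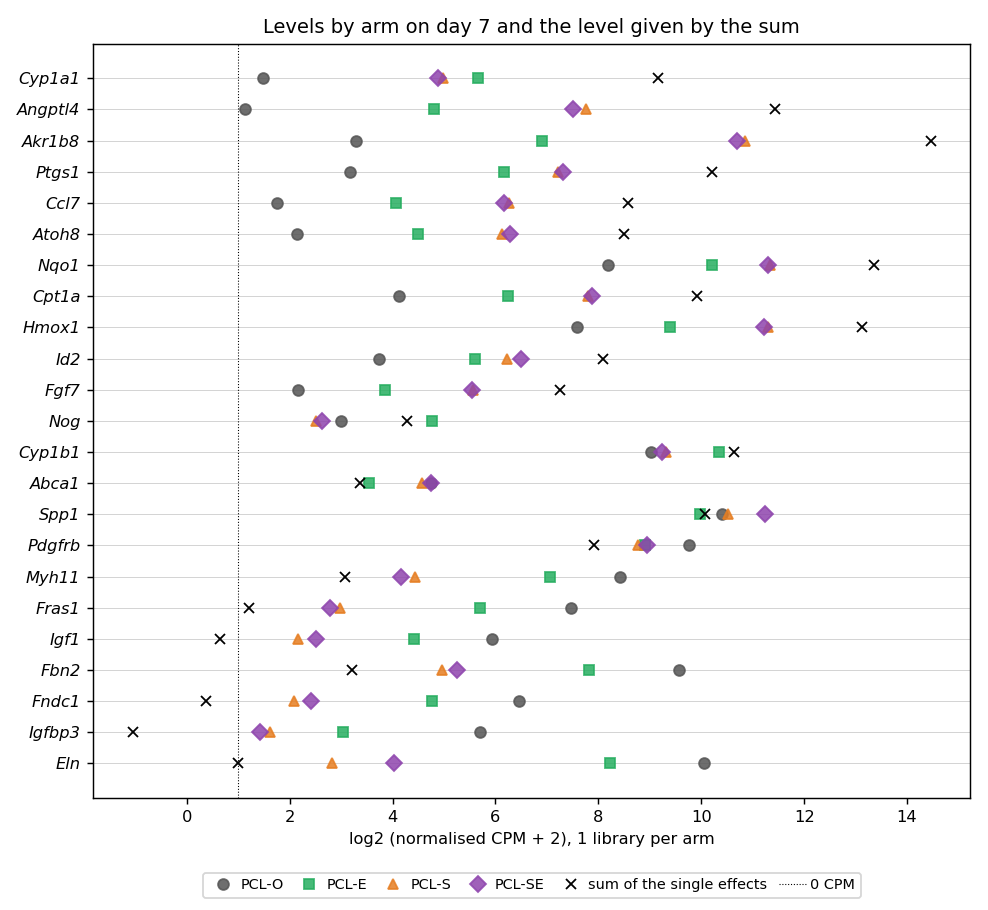
Normalised levels of 23 named genes in the 4 day 7 libraries, as log2(CPM + 2), with 1 symbol per arm and a cross at the level that the sum of the single effects gives. In most of these genes the PCL-S and PCL-SE symbols nearly coincide, and the cross lies to the right for genes such as Cyp1a1 and Akr1b8 and to the left for genes such as Eln and Igfbp3, where it can pass the dotted line at 0 CPM.

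In most of the 192 genes the combined arm lay near the S7 arm: PCL-SE was within 0.5 of PCL-S for 76 of the 102 below the sum and 73 of the 90 above it. The effect of E7 was read without S7 as PCL-E against PCL-O and with S7 as PCL-SE against PCL-S, which share no library, and the departure is the second ratio minus the first. Across the 7835 genes the E7 effects with and without S7 had a Pearson r of -0.04 and a slope of -0.02, whereas the S7 effects with and without E7 had an r of 0.90 and a slope of 0.70. These are descriptions across genes, which are not independent. PCL-E differed from PCL-O by at least 1 log2 unit for 143 genes (1.83%) and PCL-SE from PCL-S for 21 (0.268%), of which 15 are uncertain by the same criteria.

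Of the 143 genes, 74 were higher in PCL-E than in PCL-O, with a median difference of 1.38. In the presence of S7 the median E7 difference of these genes was -0.04, and 64 of them lay within 0.5 of 0. In this set 1 was again higher by at least 1 log2 unit. The other 69 were lower in PCL-E, with a median of -1.23, and with S7 present their median was -0.03, with 56 within 0.5 and 1 again lower by at least 1. With 0.5 added to the CPM in place of 2, the number past 1 the same way with S7 present went from 2 of 143 to 10 of 176. S7 alone moved most of them the same way: 62 of the 74 were at least 1 log2 unit higher in PCL-S than in PCL-O (median of all 74, 2.04) and 59 of the 69 at least 1 lower (median of all 69, -2.94).

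**Figure D2:**
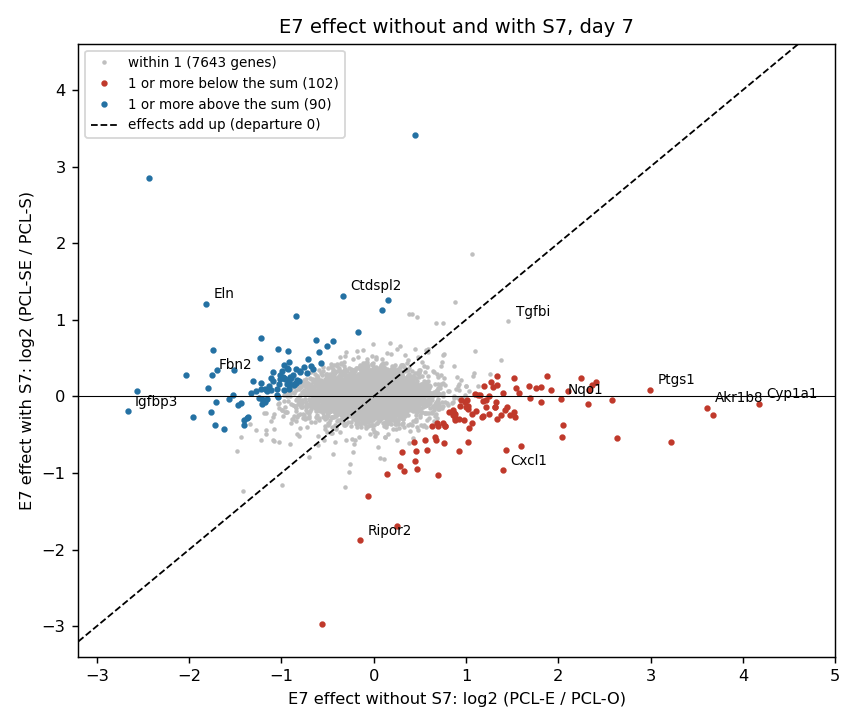
E7 effect without S7 (horizontal, log2 of PCL-E over PCL-O) against the E7 effect with S7 (vertical, log2 of PCL-SE over PCL-S) on day 7, 1 point per gene for 7835 genes. Points on the dashed diagonal have a departure of 0, and the 102 genes below the sum and 90 above it lie mostly along the horizontal line at 0, where PCL-SE equals PCL-S.

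Where both peptides alone moved a gene by at least 1 log2 unit in the same direction, the median of the combined arm was close to that of the S7 arm. Both single effects were up by that much for 62 genes, with medians of 2.41 for S7 and 1.44 for E7, and the combined arm had a median of 2.35. Their departures ran from -4.27 to -0.48, and 53 were at least 1 below the sum. Both were down for 59 genes, with medians of -3.13 and -1.23, and the combined arm had a median of -3.23. Their departures ran from 0.19 to 5.28, and 43 were at least 1 above. The value of 5.28 belongs to LOC108351058, an uncertain placeholder in which PCL-SE stood above the blank. Eln among the genes down and Tgfbi among the genes up also lay away from PCL-S, with PCL-SE higher by 1.21 and 0.98. The departure contains both single effects, so the counts describe genes chosen by part of it and test nothing.

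**Figure D3:**
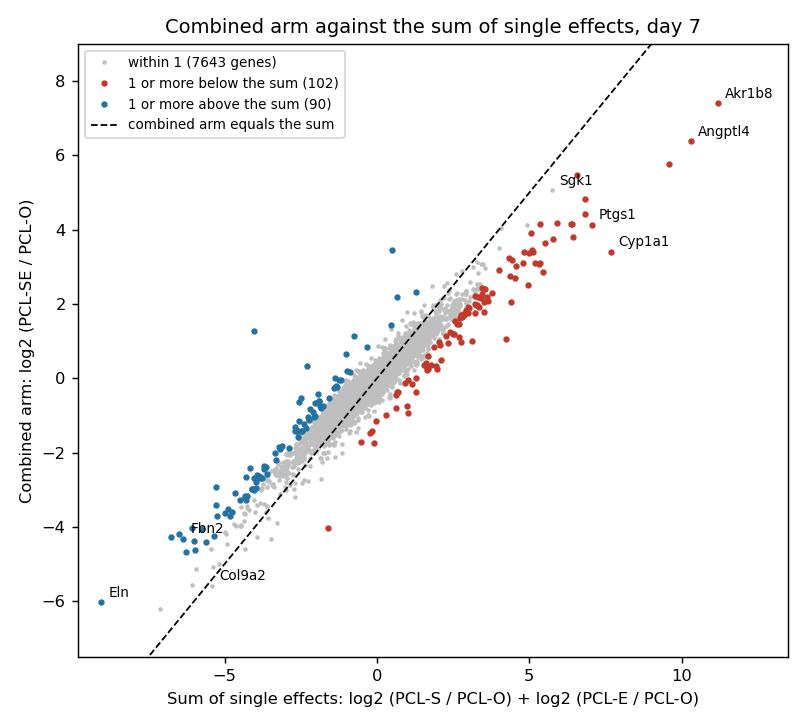
Combined arm (vertical, log2 of PCL-SE over PCL-O) against the sum of the single effects (horizontal, log2) for 7835 genes on day 7, with the dashed line where they are equal. The cloud bends away from the line at both ends, with Akr1b8, Angptl4 and Cyp1a1 below it and Eln and Fbn2 above it, while Sgk1 and Col9a2 lie closer to it.

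The 192 genes were sorted by counting a single effect as present at 0.5 log2 units or more. In 125 (64 above the sum, 61 below) both effects were present with the same sign and the combined arm was within 0.5 of the larger one. In 28 the combined arm fell short of the larger single effect. E7 alone had an effect in 14 genes and S7 alone in 11, the single effects had opposite signs in 7, and neither was present in 6. With both effects present and of the same sign, only 1 gene, the placeholder AABR07046778.1, moved further in that direction than their sum. Counting single effects of any size, 2 of the 102 genes below the sum had both down. Likewise 2 of the 90 above it had both up. PCL-E lay strictly between PCL-O and both S7 arms for 70 of the 102 genes below the sum and for 63 of the 90 above it.

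Several genes of xenobiotic metabolism lay below the sum, and Cyp1a1 had the lowest departure of the 7835 genes. Cyp1a1, the classical AhR target that oxidises polycyclic aromatic compounds, stood at 0.795 CPM in PCL-O, 29.6 in PCL-S, 48.3 in PCL-E and 27.6 in PCL-SE. All 3 peptide arms were far above the blank, and PCL-SE was near PCL-S (-0.09 log2 units). The departure was -4.27 ± 0.10 (counting error). Cyp1b1, a related P450 enzyme, stood at 517 CPM in PCL-O, 635 in PCL-S, 1301 in PCL-E and 602 in PCL-SE, with a departure of -1.41. Here only PCL-E stood apart, and the level with both peptides was that of S7 alone. Nqo1, a quinone reductase under AhR and NRF2, stood at 288, 2582, 1179 and 2512 CPM in the blank, PCL-S, PCL-E and PCL-SE, with a departure of -2.06 ± 0.02. Ugt1a7c, which conjugates glucuronic acid to foreign compounds, departed by -1.19. Of the 8 genes of the AhR list that were measured at 20 CPM, 4 lay at least 1 below the sum and 0 above. The list median was -1.08 beside -0.01 over all 7835 genes. Over all genes 1.3% lay that far below and 1.15% above, the shares to set beside each list count that follows. The lists were chosen with earlier results of these data known. The AhR repressor Ahrr (-0.97) and Tiparp, an AhR-induced polymerase that restrains the receptor (-0.86), fell short of the threshold. The receptor gene Ahr itself was at 0.99, also short of it, with 363 CPM in PCL-O, 116 in PCL-S, 188 in PCL-E and 120 in PCL-SE.

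Among antioxidant and aldehyde-reducing enzymes, Akr1b8, Akr1b1, Hmox1 and Ptgr1 were lowest in the blank and highest in the arms with S7, with PCL-E between. Akr1b8, an aldo-keto reductase that reduces lipid aldehydes, had 7.72 CPM in PCL-O, 1833 in PCL-S, 117 in PCL-E and 1652 in PCL-SE. PCL-E was 3.62 log2 units above the blank, whereas the arms with S7 lay within 0.15 of each other, and the departure was -3.76 ± 0.08. Its relative Akr1b1, the first enzyme of the polyol pathway, had 173, 1013, 347 and 920 CPM in the same order and departed by -1.14. Hmox1, which breaks down haem, had 191 CPM in PCL-O, 2528 in PCL-S, 673 in PCL-E and 2393 in PCL-SE, with a departure of -1.89 ± 0.02. Ptgr1, a prostaglandin reductase, had 14.0, 381, 73.7 and 450 CPM and departed by -2.004. When the effects were added as CPM, all 4 genes fell inside the threshold. The departures were then 0.03 for Ptgr1, -0.23 for Akr1b8, -0.37 for Akr1b1 and -0.33 for Hmox1. Of 28 NRF2 targets, 3 lay at least 1 below the sum and 0 above (median -0.51). The third was Fth1, the heavy chain of ferritin, which is uncertain because of its many processed copies. Gclm and Gclc, the subunits of the enzyme that starts glutathione synthesis, departed by -0.58 and -0.41, and Glrx, a glutaredoxin, by -1.08.

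Genes of lipid use formed a further group below the sum. Angptl4, a secreted inhibitor of lipoprotein lipase, had 0.191 CPM in PCL-O, 215 in PCL-S, 25.9 in PCL-E and 180 in PCL-SE. Its E7 difference was 3.67 log2 units without S7 and -0.25 with S7, which gave a departure of -3.92 ± 0.07. Cpt1a, which admits long-chain fatty acids to mitochondria, had 15.5, 221, 73.3 and 233 CPM in the same order and departed by -2.03. In both genes PCL-E lay between the blank and the arms with S7, which nearly coincided. Ucp2, an uncoupling protein (-1.24), Pdk4, a kinase that turns off pyruvate oxidation (-1.19), Fabp3, a fatty acid carrier (-1.14), and Plin2, a lipid droplet coat protein (-1.001), also passed the threshold. Of 21 PPAR and fatty acid oxidation targets, 7 lay below the sum by at least 1 and 0 above, with a median of -0.73. Fabp4 and the other adipocyte markers together gave 4.10 CPM in PCL-O, 34.3 in PCL-S, 6.04 in PCL-E and 27.5 in PCL-SE, with the 5 defining ones named above under 0.1; the part of such cells in the lipid genes was not tested.

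Several chemokine and growth factor genes lay below the sum, and others above it. The chemokine Ccl7 had 1.37 CPM in PCL-O, 74.8 in PCL-S, 14.8 in PCL-E and 69.6 in PCL-SE, with a departure of -2.42. Ccl2, the main monocyte attractant, had 7.44, 73.3, 45.4 and 77.5 CPM in the same order and departed by -2.25. Cxcl1, a neutrophil attractant, had 1.18, 23.6, 6.37 and 11.1 CPM and departed by -2.36, and in this case PCL-SE was 0.96 log2 units below PCL-S. These are 3 of the 7 chemokines and cytokines at 20 CPM, whose median was -0.44. Macrophage markers summed to 9.85 CPM in PCL-O, 17.3 in PCL-S, 9.54 in PCL-E and 16.2 in PCL-SE. Of these 8 markers only 1, Cd14, reached 1 CPM, with 8.80, 16.5, 8.88 and 15.5 in the same order. Ptprc, Adgre1 and C1qa were under 0.1. The part of macrophages in the chemokine levels was not tested. Ptgs1, the constitutive cyclooxygenase of prostaglandin synthesis, had 6.99, 147, 69.6 and 156 CPM in the 4 arms in that order and departed by -2.91 ± 0.08. Rab3b, a GTPase of secretory vesicles, had 0.381, 23.0, 7.82 and 15.3 CPM in the same order and departed by -2.58. The growth factors Pgf (-1.83), Fgf7 (-1.72) and Ereg (-1.69) and the receptor Fgfr3 (-1.59) followed, while Egfr (1.11) and Pdgfrb (1.02) lay above the sum. Over the 27 growth factor genes, 4 were at least 1 below the sum, Angptl4 being the fourth, and 2 above, with a median of 0.02.

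Within the bone morphogenetic protein (BMP) and TGF-beta pathway, which drives osteogenic commitment, most genes past the threshold lay below the sum. Inhbb, the activin B subunit, had 3.21 CPM in PCL-O, 36.7 in PCL-S, 19.5 in PCL-E and 27.8 in PCL-SE and departed by -2.43. Nog, which encodes the secreted BMP antagonist noggin, had 6.01, 3.70, 25.2 and 4.15 CPM in the same order, so that it was high in PCL-E only, and departed by -1.65 ± 0.14. Gdf15, a stress-induced member of the family, departed by -1.03. Among the targets, Atoh8, a transcription factor, had 2.38, 67.9, 20.6 and 75.8 CPM in the 4 arms in that order and departed by -2.21. The inhibitors of DNA binding Id2 (-1.61) and Id1 (-1.26), classical BMP targets, were higher in all 3 peptide arms than in the blank. Bmp3, a ligand that restrains bone formation, had 304, 21.4, 146 and 23.0 CPM in the same order and lay 1.14 above the sum. Altogether 6 of 33 genes of this list were at least 1 below the sum and 1 above, with a median of -0.28.

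Several matrix genes lay above the sum, and Eln had the highest departure of the genes not given as uncertain. Eln, the core protein of elastic fibres, had 1059 CPM in PCL-O, 5.04 in PCL-S, 299 in PCL-E and 14.3 in PCL-SE. E7 went with a lower level without S7 (-1.82) and with a higher level in its presence (1.21), and the departure was 3.03 ± 0.09. Fbn2, a fibrillin of the microfibril scaffold, had 756, 29.1, 222 and 35.9 CPM in the 4 arms in that order and departed by 2.04. Its relative Fbn1 had 2818, 284, 1448 and 257 CPM in the same order and departed by 0.82. Of 17 elastic fibre genes, 2 lay at least 1 above the sum and 0 below, with a median of 0.55. In Eln and Fbn2 the levels with S7 were a small part of the blank, and PCL-E lay between.

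Among basement membrane and collagen genes, Fras1, Frem1, Col1a1 and Col12a1 were also highest in the blank, with PCL-E between it and the arms with S7. Fras1 and Frem1 encode partner proteins that anchor epithelia to the underlying matrix. Fras1 had 175 CPM in PCL-O, 5.86 in PCL-S, 50.1 in PCL-E and 4.84 in PCL-SE, with a departure of 1.56, and Frem1 had 26.2, 0.185, 7.49 and 0.138, with a departure of 1.54. With Col18a1 (1.21), 3 of 15 basement membrane genes were above the sum and 0 below, with a median of 0.33. Col27a1 was the 1 of 9 fibrillar collagens past the threshold (1.13). The abundant Col1a1, the main protein of bone matrix, had 25934 CPM in PCL-O, 4922 in PCL-S, 15050 in PCL-E and 4561 in PCL-SE and departed by 0.68. Col12a1, a collagen that binds to the surface of fibrils, had 6280, 817, 2911 and 967 CPM in the same order and departed by 1.35. Fndc1, a secreted fibronectin-domain protein, had 86.1, 2.22, 25.1 and 3.34 CPM and departed by 2.04, and Wisp1, a matricellular protein, departed by 1.27. They were the 2 of 20 small proteoglycan and matricellular genes at least 1 above the sum. In that list 2 lay below it, Lum (-1.24) and Wisp2 (-1.17), and the median was 0.44.

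The IGF axis had 3 of 12 genes at least 1 above the sum and 0 below, beside 1.15% and 1.3% of all 7835 genes. Igfbp3, the main carrier of IGFs, had 50.3 CPM in PCL-O, 1.08 in PCL-S, 6.22 in PCL-E and 0.692 in PCL-SE and departed by 2.47 ± 0.13. Igf1, the ligand, had 58.9, 2.48, 19.4 and 3.71 CPM in the same order and departed by 1.86, and the binding protein Igfbp4 had 138, 6.81, 43.5 and 4.54 CPM and departed by 1.19. All 3 were highest in the blank, lower with E7 and lowest in the arms with S7. The IGF receptor gene Igf1r departed by 0.29. Igfbp2 went the other way (-0.88), with 1301 CPM in PCL-O, 144 in PCL-S, 1050 in PCL-E and 62.4 in PCL-SE: E7 made little difference without S7 (-0.31) and a larger one with S7 (-1.18).

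Other genes high in the blank belonged to muscle, membrane transport and signalling. Myh2, a skeletal muscle myosin, had 60.4 CPM in PCL-O, 0.818 in PCL-S, 13.3 in PCL-E and 1.41 in PCL-SE and departed by 2.30. The smooth muscle genes Actg2 (1.10) and Myh11 (1.09) were 2 of 17 contractile genes above the sum, with 0 below, and the abundant Acta2 departed by 0.15. Skeletal muscle markers summed to 81.0 CPM in PCL-O, 1.53 in PCL-S, 19.5 in PCL-E and 1.45 in PCL-SE, with Myh2 the 1 of 8 at 20 CPM, and smooth muscle markers to 14348, 4271, 12456 and 3778. Their part in these departures was not tested. Atp2b4, a plasma membrane calcium pump, had 55.3, 2.98, 15.1 and 5.58 CPM in the arms in that order and departed by 2.35. Slc29a1, a nucleoside transporter, had 33.8, 19.3, 8.27 and 20.9 CPM and departed by 1.90, with its lowest level in PCL-E rather than in the arms with S7. Map2, a microtubule-binding protein (1.73), Cmklr1, the chemerin receptor (1.68), Ptprq, a phosphatase (1.63), and Rcan2, a regulator of calcineurin (1.55), completed the genes with the highest departures.

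Genes high or low in PCL-E alone formed a small class. Besides Nog and Cyp1b1 it included Abca1, the cholesterol exporter, with 25.02 CPM in PCL-O, 21.9 in PCL-S, 9.63 in PCL-E and 24.9 in PCL-SE and a departure of 1.39. For these genes the level with both peptides was near that of the blank and of S7 alone. Among genes with an effect of S7 alone, Ripor2 had 19.2, 44.3, 17.2 and 10.6 CPM in the same order and departed by -1.73, Ctdspl2 had 14.8, 8.61, 11.3 and 24.4 and departed by 1.65, and Pamr1 departed by -1.17. In Ripor2 and Ctdspl2 the combined arm was past the blank on the other side from S7 alone.

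Single effects of opposite sign preceded a departure in 7 genes. Ankrd1, a target of YAP in stretched cells, had 25.8 CPM in PCL-O, 11.6 in PCL-S, 50.8 in PCL-E and 6.30 in PCL-SE and departed by -1.64. Lum, a keratan sulfate proteoglycan of collagen fibrils, had 47.2, 25.4, 76.7 and 16.5 CPM and departed by -1.24, and Acan, the large cartilage proteoglycan, had 92.7, 55.9, 238 and 67.4 and departed by -1.08. In these PCL-E was the highest arm, while PCL-SE stood nearer to PCL-S than to PCL-E. Chondrocyte markers, Acan among them, summed to 587 CPM in PCL-O, 87.0 in PCL-S, 478 in PCL-E and 92.2 in PCL-SE, and their part here was not tested. Fam180a lay on the other side, with 5.75, 21.3, 2.07 and 33.2 CPM and a departure of 1.53. Prl8a9, a member of the prolactin family, departed by -1.43.

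Spp1, which encodes osteopontin, a phosphoprotein of mineralised matrix, was the one gene of 8 on the osteoblast and mineralisation list past the threshold. It had 1358 CPM in PCL-O, 1461 in PCL-S, 1002 in PCL-E and 2417 in PCL-SE. The combined arm was the highest of the 4, neither single effect reached 0.5, and the departure was 1.16 ± 0.01. Pdha1, a subunit of pyruvate dehydrogenase, had 215, 212, 270 and 108 CPM in the same order, so that only the combined arm was low, and departed by -1.29. Vps25, of the endosomal sorting machinery, had 36.2, 47.0, 45.3 and 27.6 CPM and departed by -1.04. Runx2, the master regulator of osteoblast fate, departed by 0.01.

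Some genes that differed between PCL-SE and PCL-S did so in step with E7 alone. Tgfbi, a TGF-beta-induced matrix protein, had 6.90 CPM in PCL-O, 30.4 in PCL-S, 22.5 in PCL-E and 62.0 in PCL-SE. E7 went with a higher level both without S7 (1.46) and with it (0.98), and the departure was -0.48. Aspn, a small proteoglycan that binds collagen, had 16.1, 14.9, 28.5 and 30.8 CPM in the same order, with E7 differences of 0.75 and 0.96 and a departure of 0.21. Col9a2, a cartilage collagen, had 225, 8.55, 112 and 2.72 CPM, with E7 differences of -0.996 and -1.16 and a departure of -0.16. Tnn, a tenascin, was higher by 0.47 without S7 and by 1.03 with it.

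Some genes with strong S7 differences stayed within 1 log2 unit of the sum. Among 15 glucocorticoid-induced genes, Fkbp5, a chaperone of steroid receptors, had 6.99 CPM in PCL-O, 130 in PCL-S, 8.31 in PCL-E and 146 in PCL-SE and departed by -0.03. Sgk1, a kinase of ion transport, had 13.3, 540, 21.0 and 512 CPM in the same order and departed by -0.67, and Tsc22d3, which encodes the anti-inflammatory protein GILZ, departed by -0.33. The 3 of this list past the threshold, Angptl4, Pdk4 and Mt2A, had E7 differences of 3.67, 1.33 and 0.77. Over the 34 genes at least 3 log2 units higher in PCL-S, PCL-E reached a median of 12.6% of the S7 rise in CPM (quartiles 5.95% and 23.2%), and 27 of them departed. Over the 66 genes at least 3 lower, PCL-E reached a median of 54.5% of the fall (quartiles 39.1% and 68.7%), and 28 departed.

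**Figure D4:**
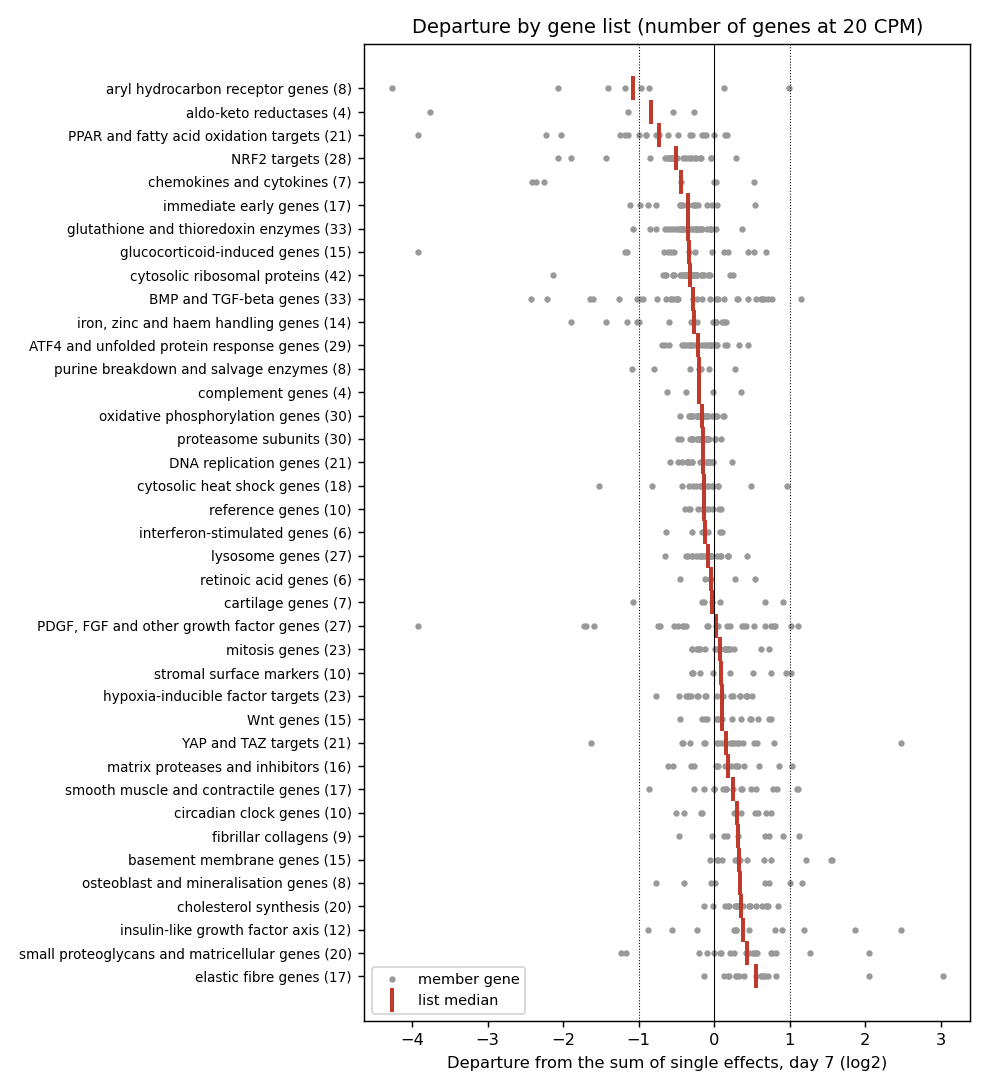
Departure on day 7 (horizontal, log2) of each gene at 20 CPM, 1 dot per gene, for 39 gene lists ordered by their median (red bar), with the number of genes in brackets and dotted lines at -1 and 1. AhR genes, aldo-keto reductases, PPAR targets and NRF2 targets have the lowest medians, and elastic fibre genes, matricellular genes and the IGF axis the highest.

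Some of the remaining lists had medians as large as those of lists described above. All 20 measured genes of cholesterol synthesis were within 1 log2 unit, with a median of 0.35, beside 0.33 for basement membrane genes. In the lists for mitosis (23 genes, median 0.07), DNA replication (21, -0.15), oxidative phosphorylation (30, -0.16), the proteasome (30, -0.15) and lysosomes (27, -0.08), 0 genes passed 1 in either direction. Iron, zinc and haem genes had 4 of 14 below the sum, among them the metallothionein Mt2A, which had 0.731 CPM in PCL-O, 51.2 in PCL-S, 2.65 in PCL-E and 38.8 in PCL-SE. The 10 reference genes had a median of -0.14, and 42 ribosomal protein genes, all uncertain, a median of -0.32. A list median is a description, and the lists share genes. Of the 192 genes, 56 are on any of the 39 lists and 136 on none.

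On day 3, in 4 other libraries, most of these genes lay near the sum. Of the same 7835 genes, 34 passed 1 on day 3 (0.434%), 19 above and 15 below, and the standard deviation across genes was 0.21. Day 7 and day 3 departures had an r of 0.04 across genes. The 102 genes below the sum had a median of -1.37 on day 7 and -0.01 on day 3, where 3 were past 1 the same way and 5 the other way, all 8 of them uncertain. The 90 above had medians of 1.23 and 0.10, with 4 past 1 the same way and 2 the other way on day 3. The single effects differed between the days as well: the median E7 difference of the 102 genes was 0.06 on day 3 and 1.18 on day 7, and their S7 difference 0.40 and 1.94. For the 90 genes the E7 medians were -0.12 and -1.04, and the S7 medians -0.53 and -2.06.

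Individual genes followed this. On day 3, Cyp1a1 had 5.83 CPM in PCL-O, 0.263 in PCL-S, 4.27 in PCL-E and 0.0627 in PCL-SE, so that S7 went with a lower level, opposite to day 7, and the departure was 0.19. Nqo1 had 502, 359, 489 and 383 CPM in the same order and departed by 0.13. Eln had 1273, 756, 1585 and 675 CPM on day 3 and departed by -0.48. Ptgs1 already had a large S7 difference on day 3 (3.16) with a smaller E7 difference (0.68) and departed by -0.61. The named genes past 1 on both days were Myh2, with 115, 2.44, 48.1 and 2.60 CPM on day 3 and a departure of 1.27, and Dchs1, a large cadherin, with departures of 1.31 on day 3 and 1.02 on day 7.

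**Figure D5:**
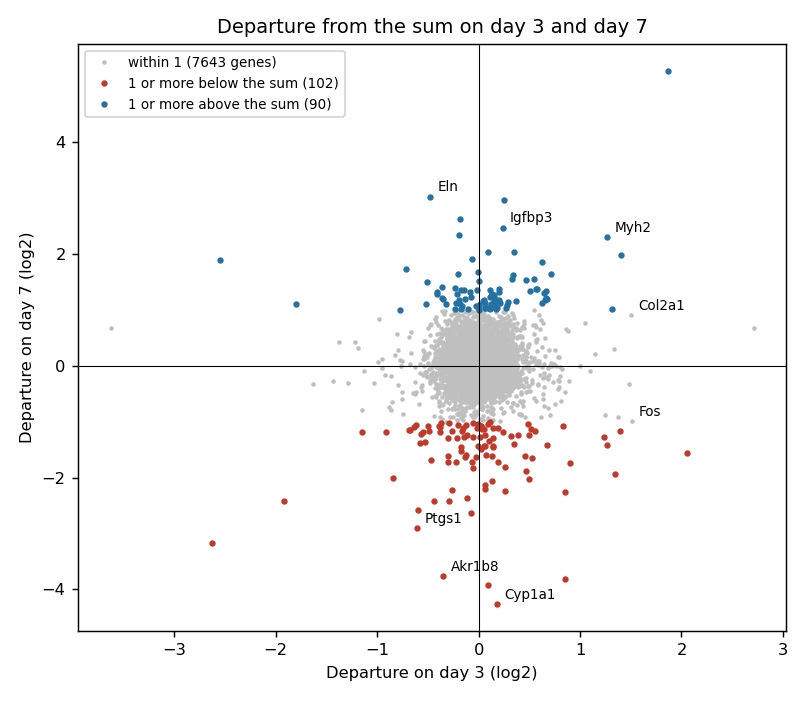
Departure on day 3 (horizontal, log2) against departure on day 7 (vertical, log2) for the 7835 genes, from 4 libraries each. The 102 genes below the sum and 90 above it on day 7 are centred near 0 on day 3, with medians of -0.01 and 0.10, and Myh2 is among the few genes past 1 on both days.

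The size of a departure is bounded by the low levels. Of the 50 genes under 5 CPM in PCL-O, which passed the minimum only through another arm, 25 passed the threshold, 23 of them below the sum, compared with 1.80% of 4846 genes at 20 to 100 CPM in PCL-O and 2.05% of 1801 genes at 100 or more. With 0.5 added in place of 2, Cyp1a1 departed by -5.34 and Angptl4 by -5.51, so their departures depend on this choice, whereas Nqo1 (-2.07) and Hmox1 (-1.90) barely moved. In 17 of the 90 genes above the sum, the sum corresponds to a level under 0 CPM, which no library can reach; holding the sum at 0 CPM left 79 past the threshold. With effects added as CPM, 30 of the 102 genes remained at least 1 below the sum and 100 kept their sign, with a median of -0.63. On that scale Nqo1 departed by -0.47, Hmox1 by -0.33, Angptl4 by -0.41 and Cyp1a1 by -1.42. In 68 of the 90 genes above the sum the added effects gave a level at or under 0 CPM.

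Values run on smoothly across the threshold. Just inside below the sum were Steap1 (-1.03), Asf1b (-1.03) and Plin2 (-1.001), and just outside Slc40a1, the iron exporter ferroportin (-0.998), Fos (-0.99) and Smad6, an inhibitor of BMP signalling (-0.99). Just inside above it were Zfp36l2 (1.00), Ldlrad4 (1.01) and Cacna2d1 (1.01), and just outside Ahr (0.99), Ptprg (0.99) and Enpp1 (0.996), which makes the mineralisation inhibitor pyrophosphate.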

How the data were processed

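The deposited table holds counts, whole numbers for each gene in each library per the file headers, and FPKM values that the authors scaled per kilobase and fragment total, per the file headers; the FPKM were used only as an alternative. The aligner and counting tool were not given in the sources used here. Protocols in the labels name TRIzol for RNA extraction and a SMARTER mRNA-Seq kit for the libraries, and they state 3 RNA samples where the table has 1 column per arm and day; pooling is not given. The submitters' processing notes name a mouse genome build, but 22050 features have rat Ensembl identifiers, 0 mouse ones and 4823 are new genes; no coordinates or sequences are printed. In the table, 10 lines of annotation fragments were left out.

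Low counts were filtered with filterByExpr (15942 features kept) and the 8 libraries scaled by edgeR's TMM (edgeR 4.0.16 under R 4.3.3); the minimum of 20 CPM used the library totals, and printed CPM are TMM-normalised. No count model was fitted, since 1 library per arm leaves no residual degrees of freedom. The counting error is the Poisson error of the 4 counts. Its check used simulated Poisson counts, so it covers the formula and not the spread between real libraries. Tables and figures used Python 3.11.15, pandas 2.3.3 and matplotlib 3.10.9. DESeq2 1.42.0 gave size factors for an alternative.

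Genes were named by a rule: the 15 lowest and 15 highest departures, the 3 largest per class, the 5 largest PCL-SE against PCL-S ratios each way, the 3 nearest the threshold on each side, and members of 39 gene lists (937 of 969 genes in the table, 640 at 20 CPM) or of marker lists; genes with near-identical copies were passed over or given as uncertain. Some genes that the rule or lists name are not reported here. The genes Col12a1 and Dchs1 were named after their values were seen. The members and lists were chosen with earlier results of these data known.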

Additional observations from a re-analysis of the deposited data

Results flagged for a closer look

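In 2 genes E7 went with a difference of at least 1 log2 unit in opposite directions without and with S7, and the difference between these effects was not tested. Eln was lower by 1.82 log2 units in PCL-E than in PCL-O and higher by 1.21 in PCL-SE than in PCL-S, a departure of 3.03. The placeholder gene LOC108351058 had 24.3 CPM in PCL-O, 6.71 in PCL-S, 2.87 in PCL-E and 60.9 in PCL-SE, a departure of 5.28. Outside the genes with rat identifiers, 183 new loci without a name reached 20 CPM in a day 7 library. Of these, 19 departed by at least 1, with 11 above the sum and 8 below, beside 2.45% of the 7835 genes.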

How the results depend on the processing

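Numbers of genes at least 1 log2 unit above and below the sum (90 and 102) were 52 and 57 with 10 added to the CPM, 143 and 164 with no minimum level, 24 and 34 with 20 CPM required in each library, 25 and 42 with 100 CPM in any library, and 9 and 20 with a threshold of 2 log2 units. Adding effects as CPM gave 559 and 40, and the deposited FPKM 40 and 101. The counts stayed within 1.5 times under 0.5 added (94 and 119), total-count scaling (73 and 116), DESeq2 size factors (93 and 101), TMM on day 7 alone (90 and 103) and, both chosen after seeing the data, a minimum on the TMM scale (89 and 97) and leaving out uncertain genes (78 and 79). The 143 genes past 1 in PCL-E against PCL-O, of which 120 lay within 0.5 in PCL-SE against PCL-S, became 55 and 48 at 100 CPM. Ptgr1 changed sign when effects were added as CPM (0.0283). At high CPM, where the added 2 has little weight, TMM shifts a departure by 0.09 against total counts. No paired analysis was possible because each arm has 1 library per day, and no library could be left out because a departure needs all 4.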
